A study of Homo sapiens with 4 samples.

Results

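The nuclear lamina and the inner nuclear membrane were examined through 10 genes, taken by symbol from the 54628 genes in each count table. They were the lamin genes LMNA, LMNB1 and LMNB2, the lamin B receptor gene LBR, the LEM-domain genes EMD, LEMD3 and TMPO, the gene BANF1 for barrier-to-autointegration factor, and the SUN-domain genes SUN1 and SUN2. They were measured by poly(A) RNA sequencing of Panc1, an established line of human pancreatic ductal carcinoma cells. The labels gave 2 libraries of Panc1 cells treated with HMGB2 siRNA and 2 libraries of Panc1 cells treated with scramble siRNA, a control sequence. HMGB2 is a high mobility group box protein of chromatin, and a small interfering RNA (siRNA) against it is meant to lower its transcript. Genotype, dose and time of treatment were not given in the labels, and they do not say whether the numbered libraries are separate cultures. The p-values therefore measure only how these libraries vary, and that variation may be technical.

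Lamins are intermediate filament proteins that form a meshwork under the inner nuclear membrane. LMNA encodes lamins A and C by alternative splicing, and its products are most abundant in stiff and differentiated tissues, while LMNB1 and LMNB2 encode B-type lamins that stay farnesylated and bound to the membrane. LBR and the LEM-domain proteins tether heterochromatin to this meshwork, the LEM domain by binding BANF1 on DNA, and SUN proteins join the lamina to the cytoskeleton through the LINC complex. Loss of lamin B1 is a widely used marker of senescent cells, and loss of nuclear HMGB2 has also been described in senescence.

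The check of the targeted gene went against the labels. In the libraries labelled HMGB2 siRNA, HMGB2 itself had 4021 and 2746 counts, against 346 and 319 counts in the libraries labelled scramble siRNA, and the headers of all 4 tables name the treatment opposite to the label. Nothing was regrouped, and every direction below is given for the libraries labelled HMGB2 siRNA relative to the libraries labelled scramble siRNA, which is the direction of higher HMGB2 RNA. On the log2 scale HMGB2 was higher by 3.07 ± 0.08 (SE, 2 libraries per group; adjusted p = 1.54e-33, edgeR's quasi-likelihood test with Benjamini-Hochberg adjustment over 15161 tested genes).

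The libraries labelled HMGB2 siRNA held 31852391 and 20976561 counts in all, and the libraries labelled scramble siRNA held 21874647 and 20340695. A gene with no read could still have had up to 3 counts, or 0.0954 to 0.146 CPM, and this limit covers counting error only. CPM here means counts per 1000000 of the library total after TMM scaling (the trimmed mean of M values). The summed CPM of the 5 epithelial markers KRT8, KRT18, KRT7, KRT19 and EPCAM was 4532 to 4585 in the libraries labelled HMGB2 siRNA and 3263 to 4184 in the libraries labelled scramble siRNA. KRT7, at 2.59 to 4.74 CPM, and EPCAM, at 16.6 to 18.5 CPM, added little to the sum. At an adjusted p under 0.05 in edgeR's quasi-likelihood test, KRT7, KRT19 and KRT8 were higher in the libraries labelled HMGB2 siRNA (log2 fold change 0.74, 0.69 and 0.29). KRT18 and EPCAM did not reach that threshold. CDKN2A, which is deleted in Panc1, had 0 counts in all 4 libraries, and 3 endothelial markers summed to at most 0.191 CPM. Of the 3 leukocyte markers CD3E had 0 counts and PTPRC was near 0, while CD68, which is not confined to leukocytes, was at 98.7 to 121 CPM. The 5 fibroblast markers summed to 60.5 CPM in both libraries labelled HMGB2 siRNA and to 55.3 and 76.9 CPM in the libraries labelled scramble siRNA, and COL1A1 alone made up nearly all of it (60.4 and 60.5 CPM in the libraries labelled HMGB2 siRNA, against 76.7 and 55.2 CPM in the libraries labelled scramble siRNA). DCN had 0 counts in all 4 libraries, and COL1A2, LUM and PDGFRA had 0 to 3. The part of these markers in the results was not tested.

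All 10 genes passed the filter on low counts. In the libraries labelled HMGB2 siRNA (HMGB2 counts 4021 and 2746, against 346 and 319 in the libraries labelled scramble siRNA), TMPO, LMNA, SUN2, LMNB1 and EMD were called higher, that is 5 of 10, at an adjusted p under 0.05. Over all 15161 tested genes 16.7% were called higher, 14.1% lower and 30.8% in either direction. None of the 10 genes was called lower by edgeR, DESeq2 or limma-voom, and at an unadjusted p under 0.05 in edgeR 1 was lower (SUN1). LMNB2, LBR, LEMD3, BANF1 and SUN1 were not called. With upper-quartile or total-count scaling the split was 4 higher and 1 lower, since EMD was then not called and SUN1 was. The CPM of the groups did not overlap for 7 of the 10 genes (LMNA, LMNB1, EMD, LEMD3, SUN1, SUN2 and TMPO), and 63.7% of all tested genes had groups that did not overlap. Over the 10 genes the log2 fold changes had a median of 0.20, against -0.01 over all tested genes.

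**Figure D1:**
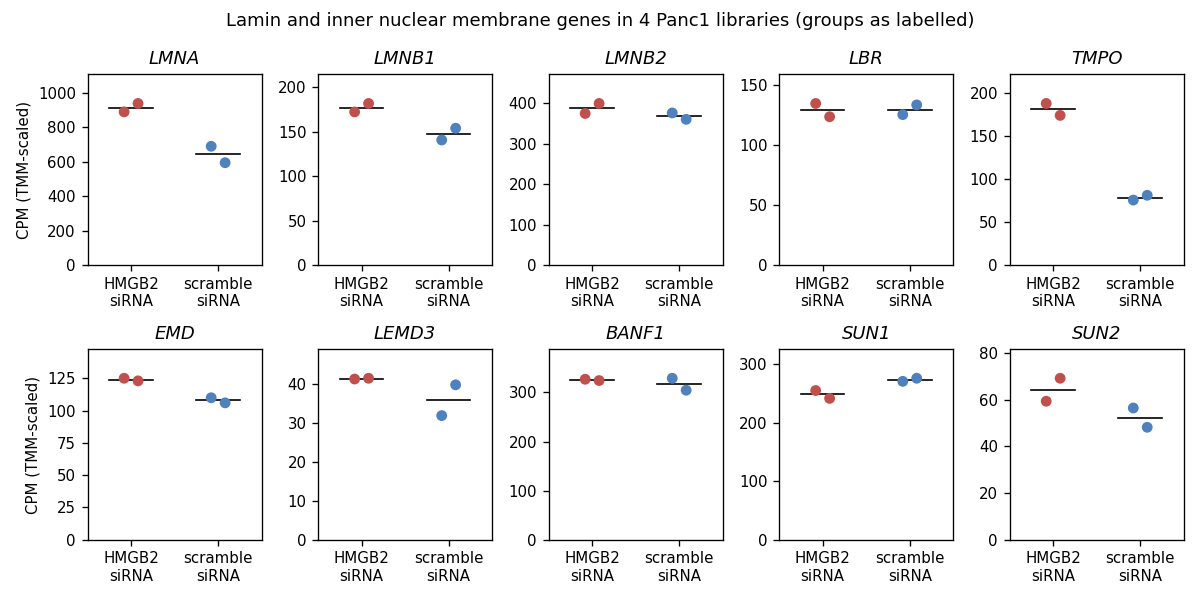
Normalised expression of the 10 genes in each library, in CPM scaled by TMM, with libraries labelled HMGB2 siRNA on the left of each panel and libraries labelled scramble siRNA on the right; points are libraries and bars are group means. TMPO stands at 188 and 174 CPM in the libraries labelled HMGB2 siRNA and at 75.4 and 81.02 CPM in the libraries labelled scramble siRNA, while the points of LBR, LMNB2 and BANF1 overlap.

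Sequences upstream of the start sites are printed here for a gene that changed most, a gene that changed little but was called, and a gene whose groups overlapped. The windows come from RefSeq (GRCh38.p14), which gave 15 windows of 250 bases for 9 of the 10 genes, with SUN1 unmatched. Capitals mark CCAAT boxes, searched as CCAAT on both strands, an element bound by the factor NF-Y and frequent in promoters of cell cycle genes.
TMPO upstream window, chr12:98515323-98515572, plus strand: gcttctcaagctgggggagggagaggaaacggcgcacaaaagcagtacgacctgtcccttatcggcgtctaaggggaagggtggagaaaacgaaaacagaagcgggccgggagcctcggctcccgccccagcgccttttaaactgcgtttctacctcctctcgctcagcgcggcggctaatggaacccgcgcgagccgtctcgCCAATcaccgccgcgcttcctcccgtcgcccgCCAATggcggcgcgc
EMD upstream window, chrX:154379045-154379294, plus strand: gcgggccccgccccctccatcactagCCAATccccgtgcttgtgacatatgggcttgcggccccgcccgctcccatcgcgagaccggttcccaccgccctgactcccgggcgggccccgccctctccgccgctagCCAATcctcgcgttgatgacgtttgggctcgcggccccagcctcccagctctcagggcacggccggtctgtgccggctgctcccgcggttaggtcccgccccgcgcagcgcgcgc
LBR upstream window, chr1:225428822-225429071, minus strand: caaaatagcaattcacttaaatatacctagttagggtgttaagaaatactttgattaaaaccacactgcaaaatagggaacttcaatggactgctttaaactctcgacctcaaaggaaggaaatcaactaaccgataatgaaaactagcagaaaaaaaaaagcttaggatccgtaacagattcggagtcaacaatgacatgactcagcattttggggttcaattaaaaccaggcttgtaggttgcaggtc
The windows of TMPO and EMD held 2 CCAAT boxes each and that of LBR held none. Counting every listed window, CCAAT was present for LMNA, LMNB1, EMD, LEMD3, SUN2 and TMPO and was not found in the windows of LMNB2, LBR and BANF1. Counting only the first listed window of each gene, which leaves LMNB1 without a match, 5 of 9 genes held CCAAT, against 34.5% of 11136 tested genes with a window. The cell cycle element CHR (TTTGAA or TTCGAA, both strands) was found for LMNB2 and SUN2, against 9.33% of those genes. An E2F element (TTTCCCGC or TTTCGCGC or TTTGCCGC or TTTGGCGC, both strands) was found for LMNA and LEMD3, against 4.51%. These matches are descriptions of the listed windows, of which only those of TMPO, EMD and LBR are printed, and binding was not measured.

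Sites in 3′UTRs are printed because an siRNA can lower transcripts that pair with its seed. The 3 heptamers most strongly tied to positive log2 fold changes over 12110 tested genes were found in 3 of the 10 genes. A positive log2 fold change means a lower level in the libraries labelled scramble siRNA. Those heptamers were GACAAAG and ATAGTAA and also AATAGTA. They were selected on the same fold changes, so their presence supports nothing independently. For each of these genes 1 site is shown, as 30 bases of the GENCODE annotation of GRCh38 with the heptamer in capitals, and the 2 heptamers in TMPO overlap in 1 site.
TMPO 3′UTR site, chr12:98548400-98548429, plus strand: taacctttattAATAGTAAtgttgttgtag
LEMD3 3′UTR site, chr12:65247457-65247486, plus strand: aagtttgcaatATAGTAAatgcacgattga
LMNB2 3′UTR site, chr19:2429449-2429478, minus strand: agccagcggccGACAAAGcagaaacacccg
TMPO was called higher, whereas LEMD3 and LMNB2 were not called. LMNA, LMNB1, EMD and SUN2, which were called higher, held none of the 3 heptamers in the longest annotated 3′UTR. Their 3′UTRs were 983, 756, 326 and 1542 bases long, against 2521 for TMPO, 2002 for LEMD3 and 2745 for LMNB2. LBR, BANF1 and SUN1 also held none, in 1801, 377 and 1589 bases. Any of the 3 heptamers was present in 26.4% of tested genes with a 3′UTR, and in 60.8% of those with a log2 fold change above 1, as TMPO had; the heptamers were selected for that association. The median log2 fold change of genes that held any was 0.09, against -0.01 for genes that held none. The ranking of heptamers allowed for 3′UTR length and GC content, whereas these shares and medians do not. Heptamers tied to negative log2 fold changes are not shown. The siRNA sequences were not used here, so no heptamer was matched to the seed of either siRNA. The part of these sites in the results was not tested.

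Among the lamins, LMNA differed most between the groups, LMNB1 less, and LMNB2 was not called. LMNA (GRCh38 chromosome 1, 156082573 to 156140081, plus strand) was counted 27981 and 19267 times in the libraries labelled HMGB2 siRNA, against 15189 and 12384 times in the libraries labelled scramble siRNA. Its normalised level was 890 and 939 CPM in the libraries labelled HMGB2 siRNA, against 690 and 594 CPM in the libraries labelled scramble siRNA. Both libraries labelled HMGB2 siRNA were above both libraries labelled scramble siRNA, which differed from each other by more than the other pair did. LMNA was 1.42-fold higher, a log2 fold change of 0.51 ± 0.07 (SE; 95% interval 0.37 to 0.65; adjusted p = 4.72e-08, edgeR's quasi-likelihood test). Of all tested genes, 8.49% had a larger log2 fold change. Counts were summed per gene, so lamin A and lamin C, which differ at the 3′ end of the transcript, could not be separated.

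LMNB1 (chromosome 5, 126776623 to 126837020, plus strand), the B-type lamin that falls in senescent cells, was counted 5417 and 3732 times in the libraries labelled HMGB2 siRNA, against 3098 and 3208 times in the libraries labelled scramble siRNA. These counts correspond to 172 and 182 CPM in the libraries labelled HMGB2 siRNA, against 141 and 154 CPM in the libraries labelled scramble siRNA, and the groups did not overlap. The log2 fold change was 0.26 ± 0.07 (SE; 95% interval 0.13 to 0.40; adjusted p = 0.00156, edgeR's quasi-likelihood test), or 1.201-fold. Without the second library labelled HMGB2 siRNA the log2 fold change was 0.23 and LMNB1 was not called (adjusted p = 0.108, edgeR's quasi-likelihood test). LMNB2 (chromosome 19, 2428166 to 2456959, minus strand), the other B-type lamin, stood at 375 and 399 CPM in the libraries labelled HMGB2 siRNA, against 376 and 360 CPM in the libraries labelled scramble siRNA. These ranges overlapped, and the log2 fold change of 0.07 ± 0.06 (SE; adjusted p = 0.436, edgeR's quasi-likelihood test) had a 95% interval of -0.06 to 0.20.

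Within each library the lamin genes were compared per length, which does not depend on the scaling between libraries. LMNA made up 62.5% and 62.3% of the summed lamin RPKM (the CPM divided by the exon length in kilobases) in the libraries labelled HMGB2 siRNA, against 58.1% and 54.3% in the libraries labelled scramble siRNA. LMNB2 made up 23.3% and 23.5% in the libraries labelled HMGB2 siRNA, against 28.0% and 29.1% in the libraries labelled scramble siRNA. The share of LMNB1 was 14.3% and 14.2% in the libraries labelled HMGB2 siRNA, which lies between the 13.95% and 16.6% of the libraries labelled scramble siRNA. Thus the shares of LMNA and LMNB2 did not overlap between the groups, and that of LMNB1 did. The shares of a library are parts of 1 sum, so a higher share of LMNA lowers the others. LMNB2 itself was not called, with overlapping CPM and a log2 fold change of 0.07.

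The ratio of LMNB2 to LMNA in counts per kilobase was 0.373 and 0.377 in the libraries labelled HMGB2 siRNA, against 0.482 and 0.536 in the libraries labelled scramble siRNA. The group means differed by -0.44 on the log2 scale. For LMNB1 to LMNA the ratio was 0.2281 and 0.2283 in the libraries labelled HMGB2 siRNA, against 0.240 and 0.305 in the libraries labelled scramble siRNA, a log2 difference of -0.25. That difference rested mainly on the second library labelled scramble siRNA, since it was -0.07 without that library and -0.42 without the first library labelled scramble siRNA. In none of these ratios did the groups overlap, and the two-sided exact permutation p of each was 0.33, the smallest that 2 against 2 libraries can give. The ratios share LMNA, which was called higher, as denominator, so they are not separate results. Of all tested genes 63.7% had CPM that did not overlap between the groups, and no such share was computed for ratios or for lamin shares.

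**Figure D2:**
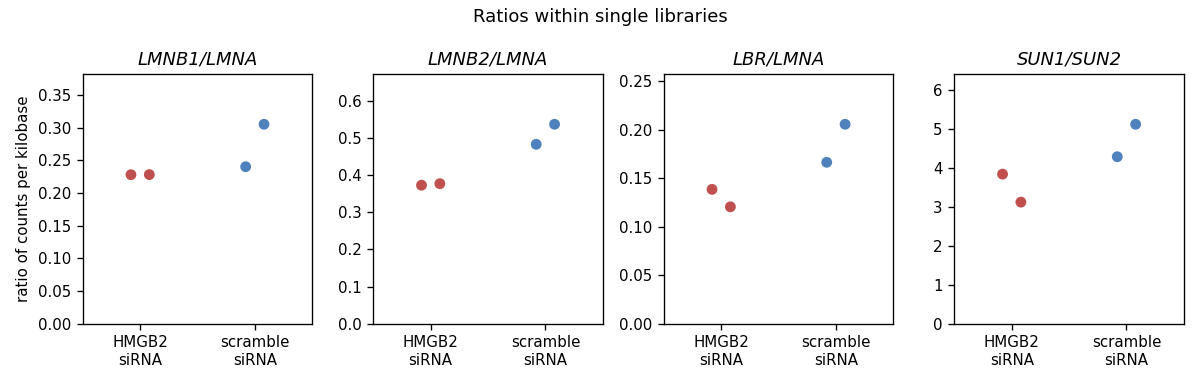
Ratios of counts per kilobase within each library, on linear axes that start at 0, with libraries labelled HMGB2 siRNA left of libraries labelled scramble siRNA; points are libraries. All 4 ratios are lower in both libraries labelled HMGB2 siRNA, and the nearest points of the groups are those of LMNB1 to LMNA, at 0.228 and 0.240. The ratios of LMNB1, LMNB2 and LBR share LMNA as denominator, so they are not separate results.

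LBR, a sterol reductase and chromatin tether of the inner membrane, showed no detectable difference. LBR (chromosome 1, 225401502 to 225428821, minus strand) stood at 134 and 123 CPM in the libraries labelled HMGB2 siRNA (HMGB2 counts 4021 and 2746), against 125 and 133 CPM in the libraries labelled scramble siRNA (HMGB2 counts 346 and 319). The ranges of the groups overlapped almost wholly. The log2 fold change was 0.00 ± 0.07 (SE; adjusted p = 0.992, edgeR's quasi-likelihood test), with a 95% interval that spans 0.910-fold to 1.10-fold. The ratio of LBR to LMNA was 0.139 and 0.121 in the libraries labelled HMGB2 siRNA, against 0.166 and 0.206 in the libraries labelled scramble siRNA, a log2 difference of -0.52 (exact permutation p = 0.33, two-sided, the smallest possible). LBR and A-type lamins are the 2 tethers of peripheral heterochromatin described in mouse cells.

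TMPO, which encodes the LAP2 isoforms that bind lamins, chromatin and BANF1, had the largest fold change of the 10 genes. TMPO (chromosome 12, 98515573 to 98550351, plus strand) was counted 5905 and 3570 times in the libraries labelled HMGB2 siRNA, against 1661 and 1688 times in the libraries labelled scramble siRNA. The normalised level was 188 and 174 CPM in the libraries labelled HMGB2 siRNA, against 75.4 and 81.02 CPM in the libraries labelled scramble siRNA. The gap between the groups was several times the difference between libraries of either group. TMPO was 2.31-fold higher, a log2 fold change of 1.21 ± 0.07 (SE; 95% interval 1.07 to 1.35; adjusted p = 4.87e-20, edgeR's quasi-likelihood test). Only 0.970% of tested genes had a larger log2 fold change. Counts per gene did not separate the membrane-bound isoforms from the nucleoplasmic isoform LAP2α.

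Part of TMPO overlaps TMPO-AS1 on the other strand, over 481 exonic bases or 6.67% of the TMPO exon length, and the counting's strand setting is not given in the sources used here. TMPO-AS1 was counted 262 and 204 times in the libraries labelled HMGB2 siRNA, against 156 and 127 times in the libraries labelled scramble siRNA. It was called higher as well, by 0.46 ± 0.15 on the log2 scale (SE; adjusted p = 0.0188, edgeR's quasi-likelihood test). Without the strand setting, it is not known whether its reads in the shared bases were told apart from those of TMPO. Its counts were far below those of TMPO in every library.

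EMD, which encodes emerin, the LEM protein mutated in X-linked Emery-Dreifuss muscular dystrophy, was called higher by a small amount. EMD (chromosome X, 154379236 to 154381523, plus strand) stood at 125 and 123 CPM in the libraries labelled HMGB2 siRNA, against 110 and 106 CPM in the libraries labelled scramble siRNA. The groups did not overlap, and the libraries of each lay close together. The log2 fold change was 0.20 ± 0.07 (SE; adjusted p = 0.0170, edgeR's quasi-likelihood test), or 1.15-fold. The call was lost with upper-quartile scaling, with total-count scaling and when either library labelled HMGB2 siRNA was left out, where the adjusted p in edgeR's quasi-likelihood test lay between 0.0689 and 0.241.

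LEMD3 encodes MAN1, a LEM protein that also binds SMAD factors and dampens TGF-β signalling. LEMD3 (chromosome 12, 65169583 to 65248355, plus strand) stood at 41.2 and 41.4 CPM in the libraries labelled HMGB2 siRNA, against 31.8 and 39.7 CPM in the libraries labelled scramble siRNA. The groups did not overlap, but the second library labelled scramble siRNA lay close to the libraries labelled HMGB2 siRNA. LEMD3 was not called, with a log2 fold change of 0.21 ± 0.09 (SE; adjusted p = 0.0671, edgeR's quasi-likelihood test). Without the second library labelled scramble siRNA it was called, at 0.38 (adjusted p = 1.43e-04, edgeR's quasi-likelihood test), and without the first the log2 fold change was 0.06.

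BANF1, the small DNA-binding protein that LEM domains hold and that gathers chromosomes into a single nucleus after mitosis, was not called. BANF1 (chromosome 11, 66002079 to 66004149, plus strand) stood at 327 and 324 CPM in the libraries labelled HMGB2 siRNA, against 329 and 305 CPM in the libraries labelled scramble siRNA. Both libraries labelled HMGB2 siRNA fell within the range of the libraries labelled scramble siRNA. Its log2 fold change of 0.04 ± 0.06 (SE; adjusted p = 0.694, edgeR's quasi-likelihood test) had a 95% interval that spans 0.940-fold to 1.12-fold. BANF1 shares 139 exonic bases, 8.48% of its exon length, with EIF1AD on the other strand, and EIF1AD was called higher by 0.25 ± 0.08 (log2, SE; adjusted p = 0.0101, edgeR's quasi-likelihood test). Its processed pseudogene BANF1P3 was counted 31 and 19 times in the libraries labelled HMGB2 siRNA, against 28 and 15 times in the libraries labelled scramble siRNA, small beside the 6347 to 10279 counts of BANF1.

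SUN1 and SUN2, the inner membrane side of the LINC complex, had log2 fold changes of opposite sign. SUN2 (chromosome 22, 38734727 to 38756014, minus strand) stood at 59.4 and 69.2 CPM in the libraries labelled HMGB2 siRNA, against 56.5 and 48.2 CPM in the libraries labelled scramble siRNA. The groups did not overlap, though the first libraries of each lay near each other. SUN2 was called higher, by 0.29 ± 0.08 on the log2 scale (SE; 95% interval 0.13 to 0.45; adjusted p = 0.00420, edgeR's quasi-likelihood test). The call was lost without the second library labelled HMGB2 siRNA (log2 fold change 0.19, adjusted p = 0.289, edgeR's quasi-likelihood test) and without the second library labelled scramble siRNA (0.18, adjusted p = 0.0547, same test). SUN2 shares 722 exonic bases with GTPBP1 on the other strand, which is 11.6% of its exon length, and GTPBP1 was not called.

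SUN1 (chromosome 7, 815557 to 874934, plus strand) stood at 255 and 241 CPM in the libraries labelled HMGB2 siRNA, against 270.4 and 276 CPM in the libraries labelled scramble siRNA. Both libraries labelled HMGB2 siRNA were below both libraries labelled scramble siRNA. The log2 fold change was -0.14 ± 0.06 (SE; adjusted p = 0.0969, edgeR's quasi-likelihood test), so SUN1 was not called. It was called lower with upper-quartile scaling, at -0.19 (adjusted p = 0.0185), with total-count scaling, at -0.19 (adjusted p = 0.0209), and without the first library labelled scramble siRNA, at -0.14 (adjusted p = 0.0465), all in edgeR's quasi-likelihood test. The ratio of SUN1 to SUN2 in counts per kilobase was 3.84 and 3.12 in the libraries labelled HMGB2 siRNA (HMGB2 counts 4021 and 2746), against 4.29 and 5.13 in the libraries labelled scramble siRNA (HMGB2 counts 346 and 319). The log2 difference was -0.44 (exact permutation p = 0.33, two-sided, the smallest possible), and leaving out 1 library at a time gave -0.59 to -0.29, with the value nearest 0 without the second library labelled HMGB2 siRNA.

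**Figure D3:**
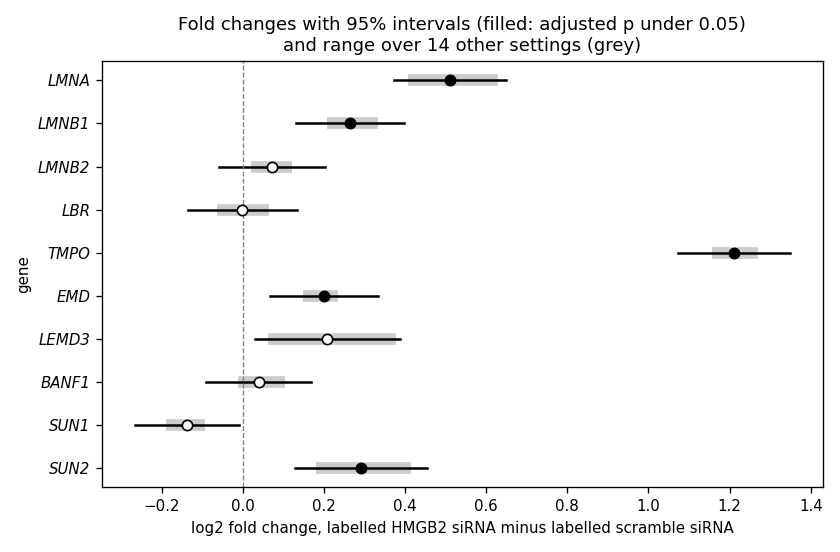
Log2 fold change of the 10 genes, libraries labelled HMGB2 siRNA over libraries labelled scramble siRNA, with 95% intervals from edgeR's quasi-likelihood fit; filled points are called at an adjusted p under 0.05, open points are not, and grey bars show the range over the 14 other settings. TMPO stands apart at 1.21, LMNA follows at 0.51, and the intervals of LMNB2, LBR and BANF1 include 0. The intervals are not adjusted for the number of genes tested. Those of LEMD3 (0.03 to 0.39) and SUN1 (-0.27 to -0.01) leave out 0, though neither gene was called.

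Per length, LMNA and BANF1 were the most abundant of the 10 transcripts and SUN2 and LEMD3 the least. LMNA averaged 223 ± 8.42 RPKM in the libraries labelled HMGB2 siRNA and 157 ± 16.5 RPKM in the libraries labelled scramble siRNA (SD, n = 2 each). BANF1 averaged 199 ± 1.13 RPKM in the libraries labelled HMGB2 siRNA and 193 ± 10.5 RPKM in the libraries labelled scramble siRNA. LMNA was therefore first and BANF1 second in the libraries labelled HMGB2 siRNA, and BANF1 first and LMNA second in the libraries labelled scramble siRNA. TMPO, eighth in both groups, averaged 25.1 ± 1.36 RPKM in the libraries labelled HMGB2 siRNA and 10.9 ± 0.547 RPKM in the libraries labelled scramble siRNA.

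The order of the other genes was the same in both groups, with LMNB2 the third, then EMD, LMNB1, SUN1, LBR, TMPO, SUN2 and LEMD3. In the libraries labelled HMGB2 siRNA no neighbours in this order had overlapping ranges, but the means of LMNB2 and EMD, 83.5 ± 3.79 and 79.8 ± 0.910 RPKM (SD, n = 2 each), lay within 1 SD of LMNB2. In the libraries labelled scramble siRNA SUN2 and LEMD3 overlapped, at 8.43 ± 0.943 and 7.49 ± 1.17 RPKM (SD, n = 2 each). The RPKM values divide by the whole exon length listed for a gene, which can be longer than any 1 transcript, so levels of genes with many isoforms may be understated.

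**Figure D4:**
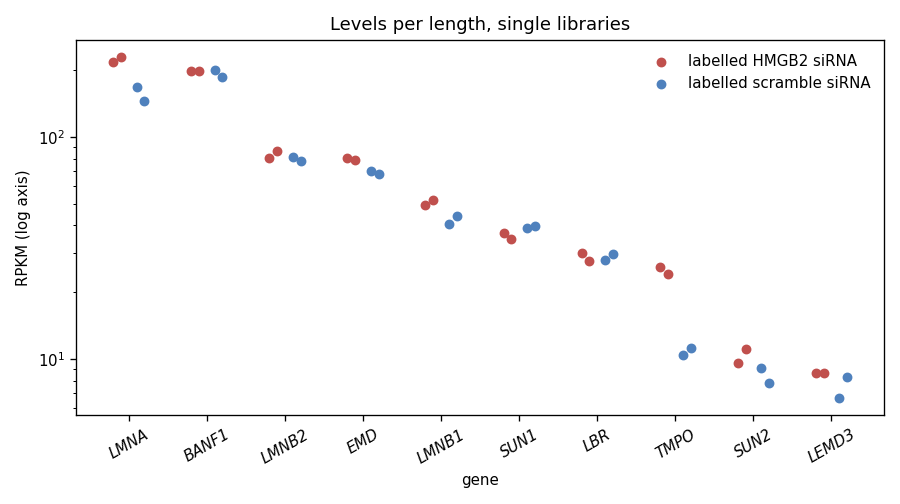
Level of the 10 genes per length in RPKM on a log axis, ordered by level, with libraries labelled HMGB2 siRNA left of libraries labelled scramble siRNA for each gene; points are libraries. As group means, LEMD3 stands lowest at 8.65 RPKM in the libraries labelled HMGB2 siRNA and 7.49 RPKM in the libraries labelled scramble siRNA, and LMNA is at 223 and 157 RPKM in those groups.

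The genes that work beside the lamina were read from 6 lists, with all p-values adjusted over all tested genes. The lists together had 18 genes called higher and 7 called lower, and 17 higher and 12 lower with upper-quartile scaling. A gene in more than 1 list was counted once in these totals. Over all tested genes 16.7% were called higher, 14.1% lower and 30.8% in either direction, and these shares stand beside the counts of every list below. In the list of other nuclear membrane, LEM and LINC genes, 2 of 17 tested genes were called higher, 2 lower and 13 were not called, with a median log2 fold change of -0.03. The number called lower was 4 with upper-quartile scaling, 1 with DESeq2, with no low-count filter, with thinned libraries, with a replicate block and without the first library labelled HMGB2 siRNA, and 0 without the second. LPIN1, a phosphatidate phosphatase that also acts on lipid synthesis at the nuclear membrane, averaged 100.3 ± 3.45 CPM in the libraries labelled HMGB2 siRNA and 74.8 ± 6.89 CPM in the libraries labelled scramble siRNA (SD, n = 2 each; log2 fold change 0.42 ± 0.07, SE; adjusted p = 5.29e-06, edgeR's quasi-likelihood test). TOR1AIP2, which encodes LULL1, an activator of the ATPase torsinA, was called higher by 0.33 ± 0.07, and TOR1B, which encodes torsinB, was called lower, at -0.30 ± 0.07 (log2, SE). LPIN2, a paralogue of LPIN1 named here after its value was seen, was the other gene called lower, at -0.19. SYNE4, SUN3 and NRM did not pass the filter on low counts.

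None of the 4 tested genes for lamin farnesylation and maturation was called by edgeR with TMM scaling, by DESeq2 or by limma-voom (0 at an unadjusted p under 0.05 in edgeR), with a median log2 fold change of -0.07. In edgeR, 1 was called lower with upper-quartile or total-count scaling, and 1 higher and 2 lower without the first library labelled scramble siRNA. ICMT, the methyltransferase that acts on the farnesylated end of B-type lamins and prelamin A, averaged 180.0 ± 3.57 CPM in the libraries labelled HMGB2 siRNA and 168 ± 11.2 CPM in the libraries labelled scramble siRNA (SD, n = 2 each). Its log2 fold change was 0.10 (adjusted p = 0.291, edgeR's quasi-likelihood test).

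Of the genes for disassembly and reassembly of the nuclear envelope in mitosis, 6 of 14 tested genes were called higher by edgeR, with a median log2 fold change of 0.05. None was called lower by edgeR with TMM scaling, by DESeq2 or by limma-voom, and 1 was lower at an unadjusted p under 0.05 in edgeR. In edgeR, 2 were called lower with upper-quartile or total-count scaling, and 1 without the first library labelled scramble siRNA. PPP2R2A, the B55α subunit of the phosphatase PP2A that acts at mitotic exit, averaged 34.2 ± 2.23 CPM in the libraries labelled HMGB2 siRNA and 17.2 ± 2.27 CPM in the libraries labelled scramble siRNA (SD, n = 2 each). It was called higher by 0.99 ± 0.10 on the log2 scale (SE; adjusted p = 2.3e-11, edgeR's quasi-likelihood test). SPAST, the microtubule-severing enzyme that works with ESCRT proteins as the envelope closes, was called higher by 0.90 ± 0.09. CDK1, the mitotic kinase that phosphorylates lamins, was called higher by 0.64 ± 0.07 (log2, SE).

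Among chromatin partners of lamins, LBR, emerin and LAP2, 4 of 9 tested genes were called higher and 1 lower, with a median of 0.19, and 2 were called higher without the first library labelled HMGB2 siRNA. GMCL1, a partner of emerin and LAP2β, averaged 33.6 ± 1.10 CPM in the libraries labelled HMGB2 siRNA and 12.8 ± 1.75 CPM in the libraries labelled scramble siRNA (SD, n = 2 each). Its log2 fold change was 1.39 ± 0.11 (SE; adjusted p = 1.81e-15, edgeR's quasi-likelihood test). H2AX, a histone variant phosphorylated at DNA breaks, was called higher by 0.48 ± 0.07. The gene called lower was CBX1, which encodes HP1β, a heterochromatin protein that binds LBR, at 184 ± 16.6 CPM in the libraries labelled HMGB2 siRNA and 256 ± 13.1 CPM in the libraries labelled scramble siRNA (log2 fold change -0.48 ± 0.07, SE). The other HP1 genes of the list, named here after their values were seen, did not share this direction. CBX3 was called higher, by 0.27 ± 0.06 (log2, SE), and CBX5 was not called, at 0.05.

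Sterol reductases and related enzymes were listed because LBR is itself a sterol C14-reductase, and 3 of 6 were called lower and 1 higher, with a median of -0.12. Without either 1 of the libraries labelled HMGB2 siRNA the number called lower was 1, the number called higher was 0 without the first of them, and it was 2 without the first library labelled scramble siRNA. DHCR7, the last reductase of cholesterol synthesis, averaged 298 ± 4.87 CPM in the libraries labelled HMGB2 siRNA and 378 ± 9.41 CPM in the libraries labelled scramble siRNA (SD, n = 2 each; log2 fold change -0.34 ± 0.06, SE; adjusted p = 3.15e-05, edgeR's quasi-likelihood test). HSD17B7, a sterol ketoreductase, was called lower, at -0.39 ± 0.10. SC5D, the sterol C5-desaturase, was called higher by 0.30 ± 0.07. TM7SF2, the other C14-reductase besides LBR and named here after its value was seen, was called lower, at -0.25 ± 0.09 (log2, SE; adjusted p = 0.0281, edgeR's quasi-likelihood test).

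Markers of proliferation and senescence moved beside the lamina genes, with 7 of 11 tested genes called higher and 1 lower and a median of 0.41. PLK1, a mitotic kinase, averaged 164 ± 0.401 CPM in the libraries labelled HMGB2 siRNA and 89.6 ± 11.9 CPM in the libraries labelled scramble siRNA (SD, n = 2 each; log2 fold change 0.87 ± 0.07, SE; adjusted p = 2.77e-14, edgeR's quasi-likelihood test). CDKN1A, which encodes the cyclin-dependent kinase inhibitor p21, averaged 84.3 ± 1.92 CPM in the libraries labelled HMGB2 siRNA and 40.5 ± 6.08 CPM in the libraries labelled scramble siRNA (log2 fold change 1.06 ± 0.08). CDK1 and CCNB1, both called higher, stand in this list and in that of nuclear envelope disassembly and reassembly, so the counts of those lists are not separate. CDKN2A, CDKN2B and IL6 had 0 counts in all 4 libraries. The part of these genes in the values of LMNB1 and TMPO was not tested.

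**Figure D5:**
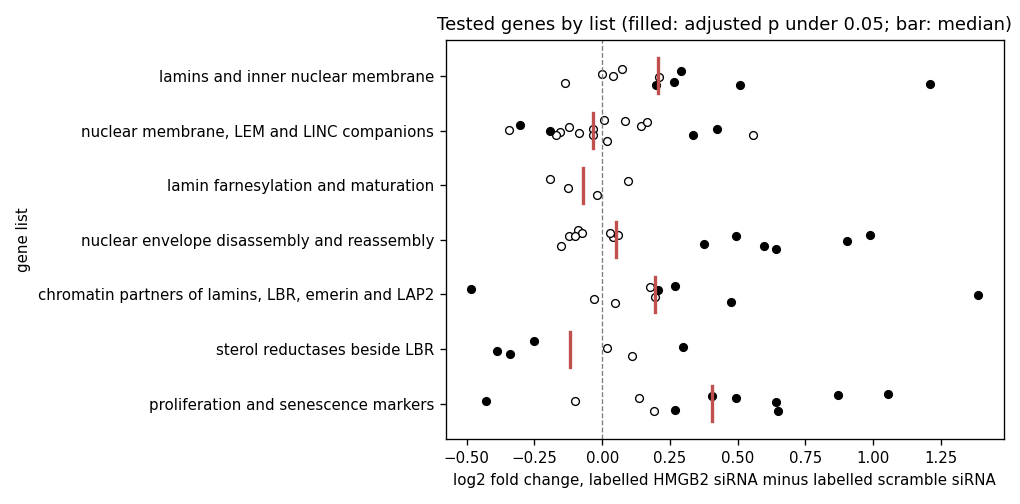
Log2 fold change of every tested gene in the 6 companion lists and of the 10 genes, libraries labelled HMGB2 siRNA over libraries labelled scramble siRNA; each point is a gene, filled where called at an adjusted p under 0.05, and the vertical marks are list medians. The proliferation and senescence list has the highest median of the 6 companion lists, at 0.41, and the sterol list the lowest, at -0.12.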

How the data were processed

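The authors deposited whole-number read counts per gene, 1 table per library, per the file headers. STAR, SAMtools 1.9, featureCounts of Subread 1.6.3 and DESeq2, and the build hg38 (GRCh38), are named per the submitters' processing notes. TRIzol and a column kit were used for the RNA, per the labels' protocols. Each table also gives exon coordinates and the exon length in bases (1000 bases per kilobase), per the file headers. Strand, multimapping and overlap settings: not given in the sources used here.

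The treatment label of a sample was given to its table. Counts were tested with edgeR 4.0.16 (glmQLFit, glmQLFTest; R 4.3.3), TMM scaling and filterByExpr (counts 10 and 15), with Benjamini-Hochberg adjustment over all tested genes. SE is the absolute log2 fold change divided by the root of the F statistic. Libraries within a group differed beyond sampling noise (chi-square per degree of freedom 3.10 for HMGB2 siRNA, 5.68 for scramble siRNA). The members and lists were chosen with earlier results of these data known. Named genes were all members, HMGB2, and from each list the up to 3 called genes with the smallest p, or the highest CPM where none was called; 1 gene called lower and 1 site are not reported here. The alternatives were other scalings and filters, DESeq2 1.42.0, limma-voom (limma 3.58.1), a replicate block, glmTreat at 1.5-fold, leaving out each library, and, added after seeing the data, thinning to the smallest total. The procedures were tested on simulated data.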

Additional observations from a re-analysis of the deposited data

How the results depend on the processing

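TMPO was called higher under all 14 alternatives (log2 fold change 1.16 to 1.27), and LMNA under all but the test against a 1.5-fold change (0.41 to 0.63). LMNB2, LBR and BANF1 were called under none of them. HMGB2 stayed between 3.02 and 3.11. With upper-quartile and with total-count scaling 1 member, SUN1, was called lower, against 0 with TMM scaling, and 12 and 11 companion genes were called lower, against 7. Of all calls 54.3% were higher with TMM scaling, 42.0% with upper-quartile scaling and 43.3% with total-count scaling. DESeq2 called 1286 genes lower, against 2135 with edgeR, and gave 2352 genes no adjusted p. Against a 1.5-fold change, 213 genes were called higher and 45 lower, with 1 member (TMPO) and 5 companion genes higher and 0 companion genes lower in glmTreat of edgeR. Leaving out 1 library at a time gave 1481 to 2904 genes higher and 903 to 2291 lower, 2 to 5 members higher and 0 to 1 lower, and 3 to 10 companion genes lower. The lowest count of members came without the second library labelled HMGB2 siRNA. Where a group had 1 library left, it was assumed to vary like the other group. The cause of these changes was not tested. With a replicate block 2446 genes were called higher and 2011 lower, with 5 members higher and 0 lower. Same-numbered libraries did not deviate together (correlation -0.01), which does not settle whether they were paired. The numbers are used here only to name libraries. With 2 libraries per group, a gene that was not called may still differ by an amount within its interval.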

Other observations

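Several rows of the companion lists were at or near 0 in a form that limits what the tables can say about them. FNTB, the beta subunit of farnesyltransferase, had 12 reads over all 4 libraries and shares 92.5% of its exon length with the read-through gene CHURC1-FNTB on the same strand, which had 0 reads. CHMP3, an ESCRT-III subunit, had 24 reads and shares 95.5% of its exon length with RNF103-CHMP3, which had 31 reads. NRM, which encodes nurim of the inner nuclear membrane, had 0 reads, and its exons are listed on 7 sequences of the assembly.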
